A study of Mus musculus with 8 samples.

Results

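The C-type lectin receptors of natural killer (NK) cells other than the Ly49 family were followed in endogenous CD8+ T cells of mice under adoptive cell therapy. The 10 genes were taken by name from the expression table, which held 47493 genes. They are *Klrb1a*, *Klrb1b*, *Klrb1c* and *Klrb1f* of the NKR-P1 family, *Klrc1*, *Klrc2*, *Klrc3*, *Klrd1* and *Klrk1* of the CD94 and NKG2 family, and *Klrg1*. Of these, 9 had a mean of at least 1 FPKM (a fragment value divided by transcript length and library depth) and were tested among 12166 such genes, and *Klrc3* stayed below that level.

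These receptors are transmembrane lectin-like proteins that were first described on NK cells and that many activated and memory CD8+ T cells also carry. Inhibitory members hold a cytoplasmic motif that recruits phosphatases, whereas activating members signal through adaptor chains, so a cell's response depends on which members it carries. Some NKR-P1 receptors recognize Clr proteins, CD94 paired with an NKG2 chain recognizes the MHC class Ib molecule Qa-1, NKG2D recognizes stress-induced ligands, and KLRG1 recognizes cadherins.

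The mice were C57BL/6 females aged 6 to 8 weeks. All of them received 200000 B16-F10 melanoma cells on day 0, cyclophosphamide at 300 mg/kg on day 3 and 2000000 Pmel-1 cells on day 5, together with 10000 IU of interleukin-2 daily for 3 days. Pmel-1 cells carry a T-cell receptor for the melanocyte antigen gp100 and the Thy1.1 mark. Anti-CD4 antibody (200 μg) was given weekly for 3 weeks from day 10, so both groups came from CD4-depleted mice, and cells were taken on day 25. CD8+ T cells from spleen and inguinal lymph nodes were isolated by negative selection and freed of Thy1.1-positive cells with beads. Cells with high IL-18Rα, the binding chain of the interleukin-18 receptor, were then held on a column by a PE-labelled antibody and anti-PE beads (IL-18Rα-hi-enriched), and the cells that passed the column were the flow-through control. Each of 4 mice gave 1 library of each fraction, and libraries of the same number were taken to come from the same mouse. Neither fraction is a pure population, and in such bulk RNA fewer cells of a type and less RNA per cell cannot be told apart.

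The estimated depth was 14500000 to 17300000 fragments per library. *Il18r1*, which encodes IL-18Rα, measured 22.2, 37.2, 27.7 and 35.3 FPKM in flow-through libraries 1 to 4 and 110.4, 106.6, 110.3 and 116.0 FPKM in enriched libraries 1 to 4, with no overlap. Flow-through library 1 stood apart from the others. The geometric mean of 8 CD8 T-cell identity genes, relative to that over all libraries, was 0.581 there, 0.921 to 1.08 in the other flow-through libraries and 1.10 to 1.18 in the enriched ones. The same library had the highest summed level of 8 erythroid genes, 2570.0 FPKM. It was also the lowest flow-through library for each of the 9 tested receptors, so the results are given with and without it where it matters.

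Of the 9 receptors tested, 7 rose in the IL-18Rα-hi-enriched fraction and none fell (limma with Benjamini-Hochberg adjustment over all genes tested, threshold 0.05). Among all genes tested, 14.1% rose and 13.7% fell. The 7 were *Klrb1b*, *Klrb1c*, *Klrb1f*, *Klrc1*, *Klrc2*, *Klrk1* and *Klrg1*, and in each of them the lowest enriched library lay above the highest flow-through library, which held for 16.4% of all genes tested. None had all its enriched libraries below the flow-through libraries, as 15.9% of genes did. *Klrb1a* and *Klrd1* did not pass the threshold. The 9 receptors had a median log2 difference of 1.43, while the median over every gene tested was -0.02. A log2 difference or fold change here is that of FPKM + 1 and so is too small for weakly expressed genes. The same count of 7 was found without flow-through library 1, and it was 7 in each of the 8 fits that left out 1 library.

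**Figure D1:**
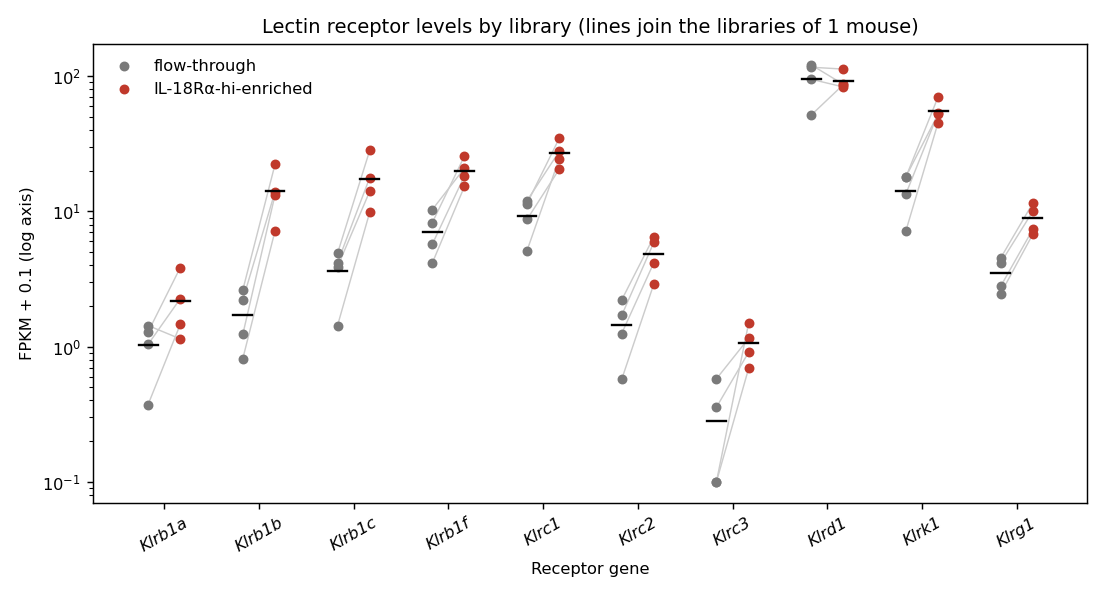
Expression of the 10 receptor genes by library, as FPKM + 0.1 on a log axis. Gray points are flow-through libraries, red points are IL-18Rα-hi-enriched libraries, lines join the libraries of 1 mouse and bars mark the mean of 4 libraries. *Klrd1* has the highest level and its fractions overlap, whereas the *Klrb1b* libraries lie at 0.715 to 2.53 FPKM in flow-through and at 7.07 to 22.2 FPKM in enriched libraries.

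The 4 NKR-P1 genes followed here lie on mouse chromosome 6 (mm10) within the NK gene complex, and 3 of them rose. *Klrb1b* (chr6:128813706-128826331, minus strand) encodes the inhibitory receptor NKR-P1B. Its level was 0.715, 2.12, 1.13 and 2.53 FPKM in flow-through libraries 1 to 4 and 7.07, 13.9, 13.1 and 22.2 FPKM in enriched libraries 1 to 4. Every enriched library was at least 6.54 times the flow-through library of its own mouse, and at most 11.6 times. The means were 1.62 ± 0.842 and 14.1 ± 6.20 FPKM (SD, n = 4), which is a log2 fold change of 2.48 with an SE of 0.34 (limma adjusted p = 0.00203), and only 2 of the genes tested had a larger one.

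*Klrb1c* (chr6:128778485-128789215, minus strand) encodes the activating receptor NKR-P1C, the NK1.1 antigen of C57BL/6 mice. It measured 1.33, 4.08, 3.80 and 4.80 FPKM in flow-through libraries 1 to 4 and 9.78, 17.7, 14.0 and 28.2 FPKM in enriched libraries 1 to 4. Enriched library 4 was the highest of the 8, and the groups were separate. The mean moved from 3.50 ± 1.51 to 17.4 ± 7.87 FPKM, or by 2.02 on the log2 scale with an SE of 0.36 (limma adjusted p = 0.00576). *Klrb1b* and *Klrb1c* were among the NK receptors that the study chose from these same libraries, so their direction is not independent evidence. An annotated protein-coding gene of the same strand, *Gm44511*, spans both. Of all 50-base stretches in the *Klrb1b* transcripts, 27.2% also occur in another gene, mainly *Gm44511*, and the share for *Klrb1c* was 17.0%, so the division of fragments between them is uncertain. *Gm44511* itself did not exceed 0.278 FPKM in flow-through or 2.30 FPKM in enriched libraries.

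*Klrb1f* (chr6:129045901-129057464, plus strand) encodes NKR-P1F, an activating receptor that binds the Clr-g protein. It had the highest mean FPKM of these 4 NKR-P1 genes in both fractions. Flow-through libraries 1 to 4 held 4.04, 10.2, 5.61 and 8.14 FPKM, and enriched libraries 1 to 4 held 15.2, 20.8, 18.2 and 25.6 FPKM. The groups did not overlap, and the rise was 2.04- to 3.76-fold within the mice. On the log2 scale it was 1.43 (SE 0.26, limma adjusted p = 0.00573). None of its 50-base stretches occurs in another gene. The 2 antisense entries that overlap it were at no more than 0.257 FPKM in any library.

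*Klrb1a* (chr6:128609227-128623533, minus strand) encodes NKR-P1A and had the lowest mean of these 4 NKR-P1 genes in both fractions. Its level was 0.272, 0.939, 1.33 and 1.18 FPKM in flow-through libraries 1 to 4 and 1.36, 2.16, 1.04 and 3.75 FPKM in enriched libraries 1 to 4. The enriched library was the higher one in 3 of 4 mice, and in mouse 3 it was the lower one. The groups overlapped, and the log2 fold change of 0.63 (95% interval -0.04 to 1.31) did not pass the threshold (limma adjusted p = 0.142, and 0.0546 with the mouse as a block). Its lowest level corresponded to an estimated 5.69 fragments.

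The summed FPKM of the 4 NKR-P1 genes was 13.1 ± 5.08 in flow-through and 53.5 ± 19.5 in enriched libraries, and its makeup differed between the fractions. *Klrb1b* made up 12.0% ± 2.36 of the sum in flow-through and 25.7% ± 3.27 in enriched libraries, whereas *Klrb1f* made up 54.6% ± 7.85 and 38.7% ± 5.49. The ratio of inhibitory *Klrb1b* to activating *Klrb1c*, taken within a library, was 0.537, 0.520, 0.298 and 0.527 in flow-through libraries 1 to 4 and 0.723, 0.784, 0.939 and 0.786 in enriched libraries 1 to 4. All enriched libraries lay above all flow-through libraries, and the ratio was higher in 4 of 4 mice. A two-sided exact permutation test of the log2 ratio gave p = 0.0286, the smallest that 70 arrangements allow (adjusted p = 0.0381 over 4 ratios by the Benjamini-Hochberg method). A test of sign flips within the 4 mice cannot go below 0.125, the exact value it gave here. These shares and this ratio also depend on how fragments shared with *Gm44511* were divided.

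Upstream sequence is shown for *Klrb1a* and *Klrb1c* because these genes have nearly the same letters before their start and lay at unlike levels in the enriched fraction. The stretches were read from RefSeq promoters of GRCm38.p6, the build that mm10 denotes, run 5′ to 3′ on the minus strand and touch no annotated exon. They cover chr6:128622975-128623184 and chr6:128788642-128788856, both inside the widest annotated span of their gene. Capitals mark bases that differ or face a gap.
Klrb1a: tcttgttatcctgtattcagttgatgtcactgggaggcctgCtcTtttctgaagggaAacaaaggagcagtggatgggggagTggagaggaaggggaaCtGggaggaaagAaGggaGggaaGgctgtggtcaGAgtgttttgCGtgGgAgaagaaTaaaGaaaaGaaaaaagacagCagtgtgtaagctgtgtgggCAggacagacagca
Klrb1c: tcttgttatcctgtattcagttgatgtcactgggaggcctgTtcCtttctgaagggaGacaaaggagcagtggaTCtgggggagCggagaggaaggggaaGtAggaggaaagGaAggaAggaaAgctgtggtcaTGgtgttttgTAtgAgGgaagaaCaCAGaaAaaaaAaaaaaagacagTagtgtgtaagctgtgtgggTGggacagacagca
Over 215 aligned columns 188 were identical, which is 87.4%. The mean enriched level was 2.08 ± 1.21 FPKM for *Klrb1a* and 17.4 ± 7.87 FPKM for *Klrb1c*, a level that is corrected for transcript length in both.

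The CD94 and NKG2 genes lie further along the same complex, and 3 of the 4 tested rose. *Klrd1* (chr6:129591782-129598775, plus strand) encodes CD94, the chain with which NKG2A, NKG2C and NKG2E pair. Its level was 51.4, 121.3, 94.9 and 116.5 FPKM in flow-through libraries 1 to 4 and 86.6, 86.9, 83.1 and 112.8 FPKM in enriched libraries 1 to 4. The groups overlapped, and the enriched library was the higher one only in mouse 1. With means of 96.0 ± 31.9 and 92.4 ± 13.7 FPKM, the log2 fold change was 0.01 (95% interval -0.58 to 0.59, limma adjusted p = 0.986). It was -0.26 without flow-through library 1, and -0.24 without both libraries of mouse 1, neither past the threshold. *Klrd1* exceeded 91.2% of the tested genes in mean flow-through level and 90.6% in mean enriched level, and it was the most abundant of the 10 receptors in both.

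*Klrc1* (chr6:129666015-129678973, minus strand) encodes NKG2A, the inhibitory partner of CD94. It was found at 5.02, 11.9, 8.61 and 11.3 FPKM in flow-through libraries 1 to 4 and at 24.3, 27.7, 20.4 and 34.6 FPKM in enriched libraries 1 to 4. Each enriched library was above each flow-through library. The mean rose from 9.21 ± 3.13 to 26.7 ± 6.01 FPKM, a log2 fold change of 1.48 (limma adjusted p = 0.00499, SE 0.25). The *Klrc1* to *Klrd1* ratio, described after its values were seen and not tested, was 0.0959 ± 0.00339 in flow-through libraries and 0.288 ± 0.0323 in enriched ones.

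*Klrc2* (chr6:129647496-129660689, minus strand) encodes NKG2C, an activating partner of CD94 that signals through the adaptor DAP12. The flow-through libraries 1 to 4 held 0.472, 1.60, 1.15 and 2.11 FPKM and the enriched libraries 1 to 4 held 2.82, 5.81, 4.08 and 6.41 FPKM. The groups were again separate, with rises of 3.03- to 5.96-fold within the mice and a log2 fold change of 1.31 (limma adjusted p = 0.0108, SE 0.28). *Klrc3* (chr6:129639064-129643337, minus strand), which encodes NKG2E, was at 0, 0.478, 0.256 and 0 FPKM in flow-through libraries 1 to 4 and at 0.589, 1.05, 0.808 and 1.39 FPKM in enriched libraries 1 to 4. No enriched library fell into the flow-through range, although the lowest enriched value corresponded to an estimated 7.22 fragments. *Klrc3* could be tested only when the filter on low levels was dropped, and then it was at 0.73 on the log2 scale (limma adjusted p = 0.0295, SE 0.17, with 7.32% of genes called higher in that fit).

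The balance of inhibitory *Klrc1* over activating *Klrc2* did not differ beyond the spread between libraries. The ratio was 10.6, 7.41, 7.50 and 5.35 in flow-through libraries 1 to 4 and 8.64, 4.76, 4.99 and 5.40 in enriched libraries 1 to 4. The ranges overlapped, with means of 7.72 ± 2.18 and 5.95 ± 1.82 and a log2 difference of -0.38, and the ratio was lower in the enriched library of 3 of 4 mice (two-sided exact permutation p = 0.314, adjusted p = 0.314). *Klrc1* took 86.7% ± 3.22 of the summed FPKM of *Klrc1*, *Klrc2* and *Klrc3* in flow-through and 82.5% ± 3.52 in enriched libraries. Transcripts of these genes are alike: 36.6% of the 50-base stretches of *Klrc1* and 31.1% of those of *Klrc3* also occur in *Klrc2*, so their shares depend on how fragments that map to several places were divided.

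*Klrk1* (chr6:129610323-129623864, minus strand) encodes NKG2D, an activating receptor that does not pair with CD94 and signals through DAP10 and DAP12. It measured 7.07, 17.9, 13.4 and 17.8 FPKM in flow-through libraries 1 to 4 and 45.1, 52.2, 53.0 and 70.1 FPKM in enriched libraries 1 to 4. The lowest enriched library was above the highest flow-through library, and the means were 14.0 ± 5.11 and 55.1 ± 10.6 FPKM. The rise was 1.96 on the log2 scale (limma adjusted p = 0.00219, SE 0.27), and it was 1.69 without flow-through library 1. *Klrk1* exceeded 48.6% of the tested genes in mean flow-through level and 83.8% in mean enriched level. It too was named by the study from these libraries. The *Klrk1* to *Klrd1* ratio was 0.137 to 0.153 across flow-through libraries and 0.521 to 0.637 across enriched libraries. It was higher in 4 of 4 mice (means 0.145 ± 0.00700 and 0.595 ± 0.0515, two-sided exact permutation p = 0.0286, adjusted p = 0.0381, exact sign-flip p = 0.125).

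*Klrg1* (chr6:122270596-122282882, minus strand) encodes an inhibitory receptor for cadherins and a marker of terminally differentiated effector cells. It lies 6.33 Mb from the nearest other receptor of this group. The flow-through libraries 1 to 4 held 2.36, 4.05, 2.68 and 4.41 FPKM, and the enriched libraries 1 to 4 held 6.68, 9.90, 7.27 and 11.4 FPKM. No libraries overlapped, and the change within a mouse was even, from 2.44- to 2.83-fold. This amounted to 1.17 on the log2 scale (limma adjusted p = 0.0058, SE 0.21). Relative to *Klrk1*, *Klrg1* was lower in the enriched library of 4 of 4 mice, with ratios of 0.252 ± 0.0577 in flow-through and 0.159 ± 0.0227 in enriched libraries (two-sided exact permutation p = 0.0286, adjusted p = 0.0381, exact sign-flip p = 0.125). This ratio was the least firm of the 3 that passed. The exact permutation p was 0.0571 without flow-through library 1 or without enriched library 1, 3 or 4, where the log2 difference was -0.50, -0.61, -0.58 and -0.66.

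**Figure D2:**
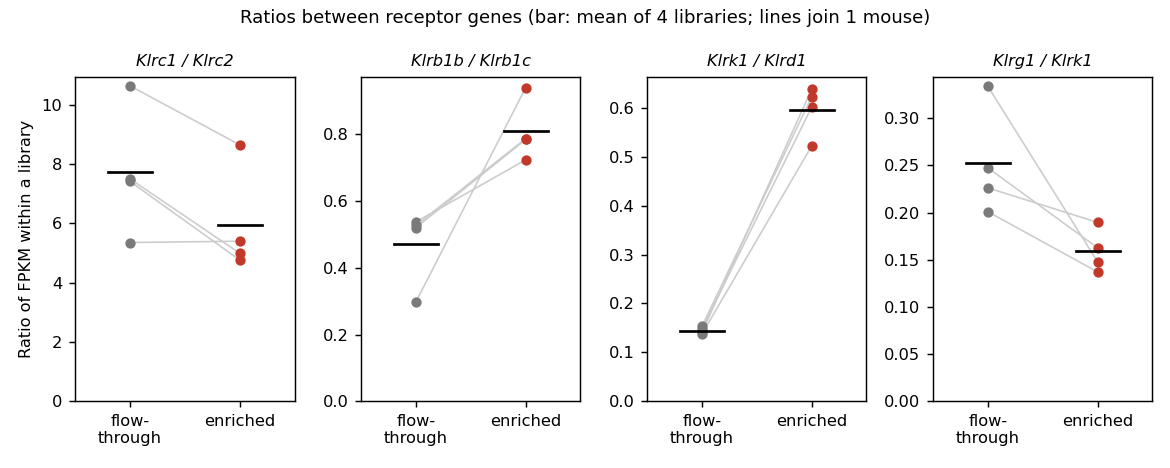
Ratios of FPKM between pairs of receptor genes within each library. Gray points are flow-through and red points enriched libraries, lines join the libraries of 1 mouse and bars are means of 4 libraries. The *Klrk1* to *Klrd1* ratio lies at 0.137 to 0.153 in flow-through and at 0.521 to 0.637 in enriched libraries, while the *Klrc1* to *Klrc2* ratios overlap.

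In the order of mean FPKM, both fractions ran *Klrd1*, *Klrk1*, *Klrc1*, *Klrb1f* and *Klrb1c* from the top and *Klrc2*, *Klrb1a* and *Klrc3* at the bottom. *Klrb1b* and *Klrg1* exchanged places, with *Klrg1* higher in 4 of 4 flow-through libraries and *Klrb1b* higher in 4 of 4 enriched libraries. In the flow-through, the ranges of *Klrd1* and *Klrk1* were apart and those of all other neighbors in the order overlapped. In the enriched fraction, *Klrd1* and *Klrk1*, *Klrk1* and *Klrc1*, and *Klrg1* and *Klrc2* were apart, and the others overlapped.

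The size of the differences depended on the reference. When each library was scaled to its 8 CD8 T-cell identity genes, the median over every gene moved to -0.33 on the log2 scale and the share of genes called higher dropped to 4.37%. The same number of receptors, 7, passed, with log2 fold changes from 0.89 for *Klrg1* (limma adjusted p = 0.0229) to 2.25 for *Klrb1b* (limma adjusted p = 0.0026). *Klrd1* was then at -0.33 (limma adjusted p = 0.181), equal to the median of all genes. The study's listing criteria were applied with a limma adjusted p under 0.001 in place of the study's own p and q. None of the receptors met them in this form, which 44 genes, or 0.362%, did. With its own p and q, the study named *Klrb1b*, *Klrb1c* and *Klrk1* among the genes over 3 times higher in enriched cells. These 3 met the criteria other than the limma adjusted p (0.715% of genes did). The same 3 met all of them when the mouse was a block, as 80 genes, or 0.658%, then did. With that block 22.2% of genes were called higher and again 7 receptors.

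**Figure D3:**
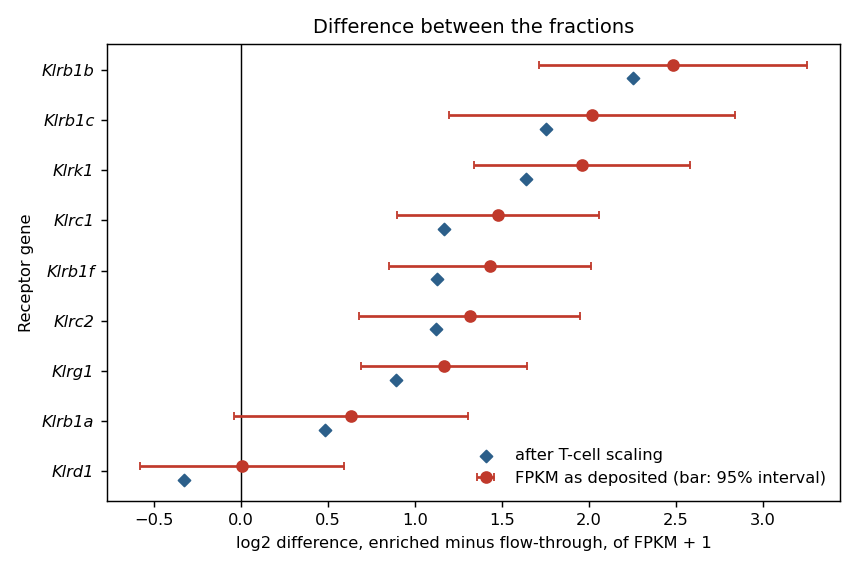
Difference of log2(FPKM + 1) between the fractions for the 9 tested receptors. Red circles with bars are values as deposited with 95% intervals, and blue diamonds are values after scaling to CD8 T-cell identity genes. *Klrb1b* is at 2.48 and 2.25, *Klrd1* at 0.01 and -0.33.

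Genes that signal beneath these receptors were read from the same fit. Of 23 adaptor, kinase and phosphatase genes tested, 8 rose and 0 fell, with a median log2 fold change of 0.42. The count was 15 with the mouse as a block and 1 after T-cell scaling, where the median was 0.08. For this and the following lists, the share of all genes tested that rose was 14.1%, 22.2% with the block and 4.37% after T-cell scaling. The adaptor *Fcer1g*, with which NKR-P1C associates, was at 27.1, 76.9, 38.0 and 53.9 FPKM in flow-through libraries 1 to 4 and at 65.3, 139.5, 84.7 and 142.6 FPKM in enriched libraries 1 to 4. The groups overlapped, and the log2 fold change of 1.15 was near the threshold (SE 0.36, limma adjusted p = 0.0425). The call was lost without flow-through library 1, 3 or 4 or without enriched library 2, 3 or 4 (limma adjusted p from 0.0599 to 0.112), after T-cell scaling (0.0864) and without a filter (0.0836). It held with the mouse as a block (limma adjusted p = 0.000381). *Tyrobp*, which encodes DAP12, had means of 104.1 ± 49.4 and 221.3 ± 75.3 FPKM (log2 fold change 1.15, limma adjusted p = 0.0525, 0.000407 with the mouse as a block, 0.0259 without flow-through library 2 and 0.0454 without enriched library 1). *Hcst*, which encodes DAP10, had means of 117.1 ± 29.4 and 158.5 ± 15.2 FPKM (0.47 on the log2 scale, limma adjusted p = 0.0882, 0.0304 with the block and 0.0482 without flow-through library 4). *Lcp2*, the scaffold SLP-76, rose by 0.80 on the log2 scale and *Plcg2*, a phospholipase, was at 0.76 (limma adjusted p = 0.0106 and 0.123, the latter 0.000626 with the block and 0.0455 without both libraries of mouse 1).

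Transcripts of known ligand genes were measured in the same libraries at unlike levels. *Clec2d*, whose product Clr-b binds NKR-P1B, was abundant in both fractions at 99.0 ± 31.9 and 99.5 ± 13.1 FPKM (log2 fold change 0.07, limma adjusted p = 0.858, -0.27 after T-cell scaling). *Clec2i*, whose product Clr-g binds NKR-P1F, had means of 19.7 ± 6.11 and 25.8 ± 3.26 FPKM and did not pass the threshold (0.41 on the log2 scale, limma adjusted p = 0.178). The other 4 *Clec2* genes were below the level tested. *H2-T23*, the Qa-1 heavy chain, had means of 197.7 ± 63.5 and 218.0 ± 20.9 FPKM (0.20 on the log2 scale, limma adjusted p = 0.549, and -0.14 after T-cell scaling). Of the NKG2D ligand genes only *Ulbp1* was tested, and it rose from 4.47 ± 0.809 to 6.46 ± 0.452 FPKM (0.46 on the log2 scale, limma adjusted p = 0.0265). That call was lost after T-cell scaling (limma adjusted p = 0.379), without a filter (0.0607) and without enriched library 2, 3 or 4 (0.0554 to 0.0773). It held with the mouse as a block (limma adjusted p = 0.0122). *Cdh1*, a ligand of KLRG1, had means of 1.13 ± 0.415 and 1.78 ± 0.592 FPKM (limma adjusted p = 0.191, and 0.0329 with the block).

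From *Klrb1a* to *Klri2* the complex covers 1131 kb and holds 30 protein-coding genes, 9 of them among the receptors described here. Of the other genes 9 were tested, of which 3 rose and 1 fell, with a median log2 fold change of 0.41, so receptors with separated fractions lay among genes with other values. *Klre1* and *Klri2*, whose products form a receptor pair, rose by 1.19 and 1.05 on the log2 scale (limma adjusted p = 0.025 and 0.00953). *Klri2* reached the level tested only through its enriched libraries, with means of 0.365 ± 0.136 and 1.91 ± 0.901 FPKM. *Klre1* lost its call without flow-through library 1 or 3 or enriched library 2 (limma adjusted p from 0.0502 to 0.0686), after T-cell scaling (0.0563) and without a filter (0.0556). It kept the call with the mouse as a block (limma adjusted p = 0.00125). *Klri1*, the other partner of *Klre1*, was below the level tested, at 0.405 ± 0.281 and 1.55 ± 0.615 FPKM. *Clec9a*, a lectin of cross-presenting dendritic cells, rose by 1.63 (limma adjusted p = 0.00703), and *Gabarapl1*, named after its values were seen, fell by 0.72 on the log2 scale (limma adjusted p = 0.0308). The *Gabarapl1* call was lost after T-cell scaling, without a filter and without flow-through library 3 or enriched library 2, 3 or 4 (limma adjusted p from 0.0609 to 0.0844). *Cd69*, an early activation marker, was at -0.43 (limma adjusted p = 0.302, 0.0234 with the block, 0.035 without flow-through library 1 and 0.0448 after T-cell scaling). Of 11 Ly49 genes 6 were tested. Of these 2 rose, *Klra9* by 1.47 and *Klra8* by 1.24 on the log2 scale, and 5 rose with the mouse as a block. The means were 0.585 ± 0.281 and 3.61 ± 1.77 FPKM for *Klra9* and 0.290 ± 0.0630 and 2.31 ± 1.68 FPKM for *Klra8*. Both genes reached the level tested only through their enriched libraries.

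**Figure D4:**
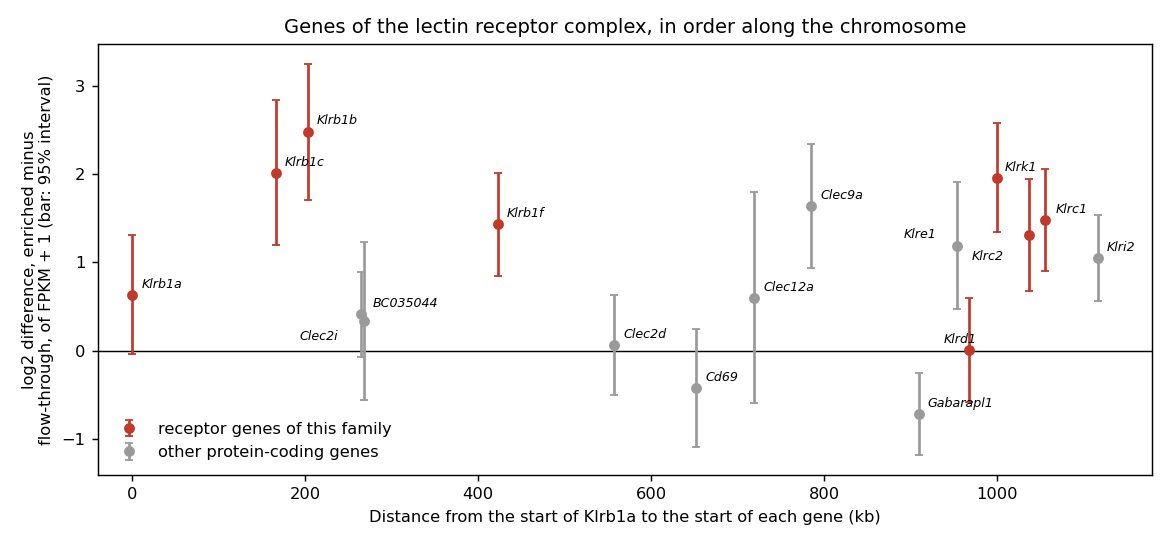
Difference of log2(FPKM + 1) between the fractions for the 17 tested protein-coding genes of the complex, against the distance in kb from the start of *Klrb1a*. Red marks are the receptors described here, gray marks are other genes and bars are 95% intervals. *Klrd1* at 0.01 and *Gabarapl1* at -0.72 lie close to *Klrk1* at 1.96.

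Transcription factors of effector and innate-like lymphocytes were listed as regulators, and 7 of 14 rose and 0 fell (5 rose and 1 fell after T-cell scaling). *Tbx21*, which encodes T-bet, was at 10.9, 18.6, 15.7 and 18.9 FPKM in flow-through libraries 1 to 4 and at 49.7 to 61.3 FPKM in the enriched libraries, which did not overlap with them, a log2 fold change of 1.69 (limma adjusted p = 0.00065, SE 0.17). *Id2* and *Gata3* rose by 1.63 and 1.31 on the log2 scale. *Eomes*, the other T-box factor of cytotoxic lymphocytes, was at 13.5 ± 2.56 and 14.2 ± 0.554 FPKM (0.08 on the log2 scale, limma adjusted p = 0.659, and -0.23 after T-cell scaling). *Runx3*, named after its values were seen, rose by 0.56 (limma adjusted p = 0.00582), and was at 0.23 after T-cell scaling (0.335).

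Promoters were at hand for 8 of the receptors, in RefSeq coordinates of GRCm38.p6, and not for *Klrd1* and *Klrg1*. The 250 bases before the start were searched on both strands for GGTGTG, the core of T-box sites, and for TGTGGT, a core of RUNX sites. The letters of these motifs can overlap, but no receptor promoter held both. The T-box letters occurred in 2 of 8 receptor promoters against 16.3% of 32851 promoters, and the RUNX letters in 6 of 8 against 14%. Each window below has 30 bases, read 5′ to 3′ on the strand of the gene, and is shown so that the letters around the motif can be compared between receptors. Capitals mark the motif, or its reverse complement ACCACA. The windows lie at chr6:128826346-128826375 for *Klrb1b*, chr6:129045831-129045860 for *Klrb1f* (its second match), chr6:128623043-128623072 for *Klrb1a*, chr6:128788713-128788742 for *Klrb1c*, chr6:129679043-129679072 for *Klrc1*, chr6:129643347-129643376 for *Klrc3* and chr6:129623976-129624005 for *Klrk1*.
Klrb1b: ccagtgtgggcgGGTGTGgacacacacagc
Klrb1f: caagtgtgggcgGGTGTGgacacagacagc
Klrb1a: gggagggaaggcTGTGGTcagagtgttttg
Klrb1c: aggaaggaaagcTGTGGTcatggtgttttg
Klrc1: gttgttgttgttACCACAgcactcgtattc
Klrc3: ttcaatagaatcACCACAgcatagaacaca
Klrk1: tgatagctgtgcTGTGGTtgtgtgggggtt
The *Klrb1b* and *Klrb1f* windows belong to a stretch of 94 aligned columns with 78.7% identity. The promoters of *Klrc2* and *Klrc3* were 98.1% identical over 210 columns and held the RUNX letters in the same setting. Those of *Klrb1a* and *Klrb1c*, 87.4% identical over 215 columns, also held these letters in the same setting. The promoters counted for each motif are therefore not all separate instances. Receptors with the RUNX letters included *Klrk1*, at a log2 fold change of 1.96, and *Klrb1a*, which did not pass the threshold. A match of letters is a description of the sequence only.

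Some, but not all, markers of other cell types rose in the same libraries as the receptors. NK cell markers were tested for 10 genes, of which 5 rose (8 with the block, and 3 rose and 1 fell after T-cell scaling), with a median log2 fold change of 1.15. Their summed level was 114.1 to 324.0 FPKM in flow-through and 264.4 to 543.4 FPKM in enriched libraries. *Ncr1*, which encodes NKp46, was at 0.623, 2.15, 1.17 and 2.68 FPKM in flow-through libraries 1 to 4 and at 7.33, 19.5, 13.3 and 27.1 FPKM in enriched libraries 1 to 4. Its order of enriched libraries was the same as that of *Klrb1c*, highest in library 4 and lowest in library 1. *Klrb1b*, *Klrb1f*, *Klrc2*, *Klrg1*, *Foxp3*, *Cd4* and *Trdc* shared this order, so it was not particular to *Ncr1* and *Klrb1c*. The fold change of *Ncr1* was 2.68 on the log2 scale (limma adjusted p = 0.00271, SE 0.39). *Itga2* and *Klra8* rose by 1.27 and 1.24, and both reached the level tested only through their enriched libraries. The means of *Itga2* were 0.569 ± 0.0834 and 2.78 ± 0.383 FPKM. No NK marker of this list that had an entry was at 0 throughout. *Eomes* was at 0.08 and *Txk*, named after its values were seen, at -0.31 (limma adjusted p = 0.659 and 0.321). *Txk* passed after T-cell scaling at -0.64 (0.035), without flow-through library 1 (0.0145) and without both libraries of mouse 1 (0.0195). *Fcer1g* and *Klre1*, counted among the 5, lost their calls in the fits given above.

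Of 8 γδ T-cell genes 4 rose (7 with the block and 3 after T-cell scaling), among them *Blk* by 1.86 on the log2 scale, and their summed level was 72.6 to 102.6 FPKM in flow-through and 103.3 to 220.1 FPKM in enriched libraries. *Trdc*, named like the next genes after values were seen, was at 1.06 (limma adjusted p = 0.0485). Its call was lost with a pseudocount of 0.1, without a trend or filter and after T-cell scaling (0.0515 to 0.0948). Leaving out flow-through library 1, 2 or 3 or enriched library 2, 3 or 4 also removed it (0.0559 to 0.122). The *Trdc* call held with the block (limma adjusted p = 0.000357). *Tcrg-C1*, *Tcrg-C2* and *Tcrg-C4* were at 0.32, 1.06 and 1.23 (limma adjusted p = 0.563, 0.1 and 0.052). With the block these p were 0.517, 0.00273 and 0.00202. Of the genes of invariant NKT and MAIT cells, *Zbtb16* rose by 1.04, from 0.405 ± 0.255 to 1.93 ± 0.693 FPKM. *Trav1* was at 1.15 (limma adjusted p = 0.0529, 0.02 with the block and 0.00547 without flow-through library 2), and 3 of 6 genes of this list were at 0 in every library. Those 3 are T-cell receptor segments, and their zeros alone do not show that such cells were absent. CD4 T-cell genes rose in 3 of 3 cases, with *Foxp3* at 2.62 ± 1.36 and 11.6 ± 5.48 FPKM and *Cd4* at 0.662 ± 0.423 and 3.93 ± 2.73 FPKM. *Cd4* and *Zbtb16* reached the level tested only through their enriched libraries. Of 10 myeloid genes 4 rose (8 with the block and 2 after T-cell scaling), and their summed level was 474.0 to 1281 FPKM in flow-through and 1090 to 2457 FPKM in enriched libraries. *Lyz2* was at 1.41 on the log2 scale (limma adjusted p = 0.0342), but its call was lost after T-cell scaling (0.0577), without a filter (0.0704) and without flow-through library 1, 3 or 4 or enriched library 2 or 4 (0.0566 to 0.0915). The *Lyz2* call held with the block (limma adjusted p = 0.000269). B-cell genes did not pass the threshold in any of 6 cases, though 1 rose and 1 fell with the block. Of 8 erythroid genes 2 fell (5 with the block), *Car1* by 2.61 and *Tfr2* by 2.17 on the log2 scale. Of the 8 genes of CD8 T-cell identity 1 rose, *Cd5* (limma adjusted p = 0.0299), and their median was 0.38 on the log2 scale. The *Cd5* call was lost without a filter, after T-cell scaling and without flow-through library 3 or any 1 enriched library (limma adjusted p from 0.0575 to 0.185). It held with the block (limma adjusted p = 0.0184). The part that cells of these other types had in the receptor results was not tested.

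The genes whose profiles over the 8 libraries were most like each receptor were found by the root mean square difference of centered log2(FPKM + 1) values, which is descriptive. *Klrb1b* was closest to *Ncr1* (difference 0.166), then *Plbd1*, and *Klrb1c* to *H2-Ab1* (0.156), *Plbd1* and *Il2ra*. *Klrb1f* was closest to *Myadm* (0.109), *Ifng* and *Hmox1*, and *Klrc1* to *Il12rb2* (0.134), *Cd7* and *Klrb1f*. *Klrk1* was closest to *Gzmb* (0.0956), which encodes granzyme B, then *Il2ra* and *Il18rap*. For *Klrc2* the closest were *Kmo* (0.0934), *Sdc4* and *Cd244*, for *Klrg1* they were *Tmem51* (0.0668), *AF251705* and *Gdpd5*, and for *Klrb1a* they were *S1pr5* (0.174), *Klra3* and *A530040E14Rik*. *Klrd1* was closest to *Clec2d* (0.0464), another gene of the complex, then *Arl5c* and *Epsti1*. Among the receptors themselves the closest pairs were *Klrb1f* with *Klrc1* (0.157) and *Klrc2* with *Klrg1* (0.167).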

How the data were processed

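RNA was sequenced from both column fractions of 4 mice, as stranded poly(A) libraries read as 150-base pairs. The deposited values are FPKM, which the authors estimated with Cufflinks 2.1.1 (correction for multi-mapped reads and fragment bias, other options at default) after TopHat alignment to mm10. The annotation release and the strand setting are not given in the sources used here. FPKM hold no counts, so depth was estimated from the low values of long genes with a single transcript, and no counting interval is given.

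Groups and library numbers came from the sample labels. Limma 3.58.1 in R 4.3.3 was fitted to log2(FPKM + 1) with a variance trend and no block, for genes whose mean reached 1 FPKM, with Benjamini-Hochberg adjustment at 0.05. It was tested on simulated data beforehand. The labels number the libraries of each fraction 1 to 4 and name no mouse. Libraries of the same number were therefore taken as those of 1 mouse. The deviations of the 2 libraries of mice 1 to 4 correlated at 0.66, 0.59, 0.31 and 0.47. Libraries of unlike number correlated at -0.60 to 0.41. The highest of these, flow-through 2 with enriched 4, was above the 0.31 of mouse 3. The mouse was a block in an alternative fit. Other alternatives were a pseudocount of 0.1, no filter, a filter at 5 FPKM, no trend, T-cell scaling (division by the geometric mean of 8 CD8 T-cell identity genes), median-ratio scaling and leaving out each library, and, chosen after seeing the data, both libraries of mouse 1. The listing criteria asked for an enriched mean of 5 FPKM or more that was 3 times the flow-through mean or higher, and no enriched library below that flow-through mean plus 3 SD. They also asked for a limma adjusted p below 0.001, in place of the study's own p and q. Ratios were compared by exact permutation in Python 3.11.15.

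All 10 receptors were named whatever their values, as were their adaptors, *Clec2d*, *Clec2i*, *H2-T23*, *Klre1*, *Klri1*, *Klri2*, *Cd69*, *Ncr1*, *Tbx21* and *Eomes*. From the other lists, the 2 genes with the largest difference could be named, and for each tested receptor the 3 genes with the most similar profile. Where fewer are named, a gene is not reported here, though counts include it. The receptors, lists and motifs were chosen with earlier results of these data known. Coordinates, overlaps and transcripts came from GENCODE M21, which held 98.9% of the gene identifiers, and promoters from RefSeq. Repeats of the 50-base stretches were counted over all its transcripts.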

Additional observations from a re-analysis of the deposited data

Results flagged for a closer look

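In groups of 4 libraries, the distance of the highest or lowest value to its nearest neighbor was compared with the range of the group, for the receptor levels and the 4 ratios. Of 28 groups 3 exceeded Dixon's limit of 0.829, and chance alone gives about 1.4. *Klrd1* was at 112.8 FPKM in enriched library 4, while the other enriched libraries lay between 83.1 and 86.9 FPKM. The *Klrc1* to *Klrc2* ratio was 8.64 in enriched library 1 and 4.76 to 5.40 in the others. The *Klrb1b* to *Klrb1c* ratio was 0.298 in flow-through library 3 and 0.520 to 0.537 in the others.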

How the results depend on the processing

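The count of receptors called higher was 8 without a filter, where *Klrc3* could be tested, 6 with a filter at 5 FPKM, where *Klrc2* could not, and 7 in every other alternative. No alternative moved across the threshold any of *Klrb1a*, *Klrb1b*, *Klrb1c*, *Klrb1f*, *Klrc1*, *Klrc2*, *Klrk1* and *Klrg1* wherever they were tested. The median log2 fold change of the receptors was 1.13 after T-cell scaling and 1.23 to 1.61 over the fits without 1 library. With the mouse as a replicate block, 2705 genes rose and 2763 fell (1720 and 1664 without it), 3 receptors met the listing criteria and 61 genes of the lists were called (35 without it). The block changed no call of a receptor. After T-cell scaling 532 genes rose and 1046 fell, and 20 list genes were called. Over the fits without 1 library, 1124 to 1802 genes rose, 940 to 1781 fell, 23 to 38 list genes were called and 0 to 1 receptors met the criteria, and without both libraries of mouse 1 there was 1. The count of genes called moved by over 1.5 times without flow-through library 3 (940 fell), enriched library 2 (1124 rose, 956 fell, and 23 list genes were called) and enriched library 4 (1129 rose, 973 fell). The cause was not tested.

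Some genes without a clear difference changed sign. After T-cell scaling, *Klrd1* was at -0.33, *Clec2d* at -0.27, *H2-T23* at -0.14 and *Eomes* at -0.23. Over the fits without 1 library *Klrd1* ranged from -0.26 to 0.14, *Clec2d* from -0.20 to 0.19, *H2-T23* from -0.047 to 0.34 and *Eomes* from -0.049 to 0.16, each lowest without flow-through library 1. Without both libraries of mouse 1 they were at -0.24, -0.16, -0.041 and -0.058. For the ratios, sign flips within mice (the replicate block) kept the log2 differences of 0.81 for *Klrb1b* to *Klrb1c*, 2.04 for *Klrk1* to *Klrd1* and -0.65 for *Klrg1* to *Klrk1* at an exact p of 0.125, the smallest possible. Over the tests without 1 library the *Klrg1* to *Klrk1* difference ranged from -0.75 to -0.50. At 4 mice and this depth, *Klrb1a* and *Klrc3* rest on few fragments.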

Other observations

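The receptors differed in how they related to *Ncr1*, the NK marker closest to *Klrb1b*. These ratios were chosen after values had been seen and were not tested. The *Klrb1b* to *Ncr1* ratio was 1.01 ± 0.0929 in flow-through and 0.870 ± 0.130 in enriched libraries (SD, n = 4). *Klrb1c* relative to *Ncr1* went from 2.26 ± 0.669 to 1.08 ± 0.180, *Klrk1* from 9.43 ± 2.35 to 3.85 ± 1.67 and *Klrc1* from 6.28 ± 1.75 to 1.89 ± 0.962, each lower in the enriched library of 4 of 4 mice.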
